A study of Mus musculus with 12 samples.

Results

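The genes described here encode enzymes that remove peroxides and superoxide, the glutathione and thioredoxin systems that serve them, the pentose phosphate enzymes and isocitrate dehydrogenase that supply NADPH, and the NRF2 and KEAP1 regulators of this program. They were listed by name, 34 genes in all. Of these, 31 had a probe set annotated to that gene alone, and Prdx5, Prdx6 and G6pdx were not analysed here. Where a gene had several probe sets, the one with the highest mean over the 12 arrays was used. All 31 passed the filter on low signal, with the 4 group means of each above the filter level of 5.84 on the log2 scale, and they were tested among 12980 genes.

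RNA came from spleen cells of 3-month-old mice, sorted for the erythroid surface protein Ter119 and for high CD71, the transferrin receptor. Single-colour Affymetrix arrays were hybridised for 4 groups of 3 labelled biological replicates each: the double knockout labelled Rb;E2f8 (DKO), the E2f8 knockout (E2f8 KO), the Rb knockout (Rb KO) and wild type (WT). The alleles, the way they were deleted, the strain and any Cre driver were not given in the labels. Values are log2 signals, so that a difference of 1 is a 2-fold change, and the level of one probe set cannot be set against that of another.

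Developing red cells make hemoglobin and take up iron, and both generate reactive oxygen. Catalase, the glutathione peroxidases and the peroxiredoxins reduce peroxides. The last 2 families take their electrons from glutathione or thioredoxin, which are in turn reduced by glutathione reductase and thioredoxin reductase at the cost of NADPH. NRF2 (Nfe2l2) is the transcription factor that induces many of these genes through antioxidant response elements, and KEAP1 holds it in check by sending it for degradation.

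In E2f8 KO against WT, 8 of the 31 genes were higher, 4 were lower and 19 were not called, while 26.1% of all genes were called (11.9% as higher and 14.2% as lower). In DKO against Rb KO, 12 were higher, 4 lower and 15 not called (37.1% of all genes, 19.5% as higher and 17.6% as lower). Glutathione reductase, sulfiredoxin, thioredoxin reductase 1, peroxiredoxin 4, Gpx4, the glutamate-cysteine ligase subunit Gclc and Nfe2l2 itself stood higher, by 1.73 to 2.56 fold in E2f8 KO over WT and by 1.84 to 3.83 fold in DKO over Rb KO. Catalase and glutaredoxin stood lower in both comparisons, catalase 1.99 fold and glutaredoxin 5.26 fold in E2f8 KO against WT. No member passed the threshold in Rb KO against WT, where 0.0077% of all genes were called. B cell markers fell in E2f8 KO against WT and in DKO against Rb KO. With their mean as a covariate none of the 31 genes was called as higher in E2f8 KO against WT or in DKO against Rb KO, while Cat and Glrx were still called as lower. That fit called 2.2% and 4.63% of all genes, against 26.1% and 37.1% without the covariate. The heat map of all 31 genes in the 12 arrays shows these values array by array.

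**Figure D1:**
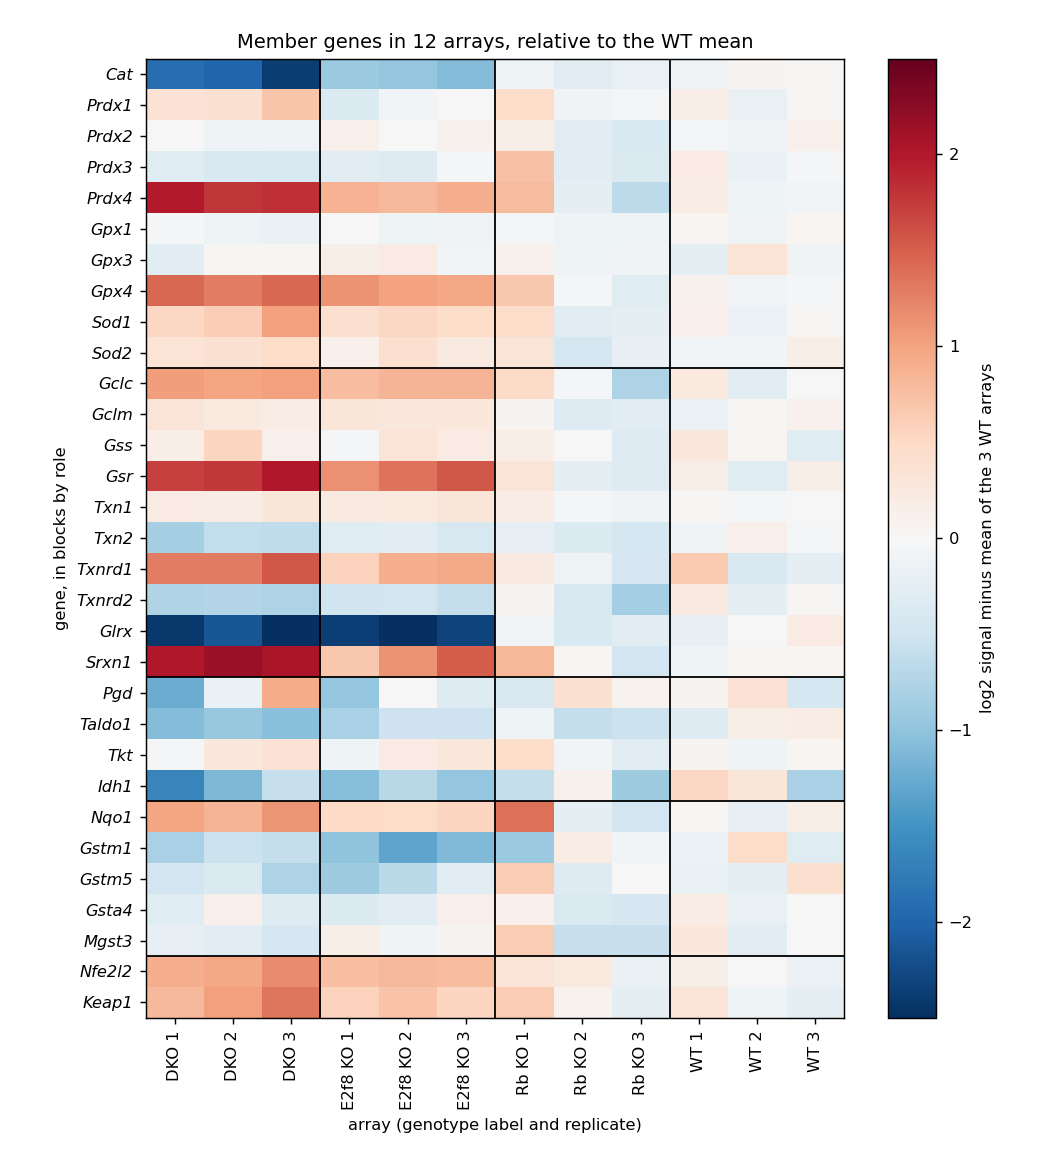
Log2 signal of 31 genes in each of the 12 arrays minus the mean of the 3 WT arrays (colour scale, log2 units), genes in rows in blocks by role and arrays in columns by genotype label. The DKO and E2f8 KO arrays are blue for Cat and Glrx and red for Srxn1, Gsr, Prdx4, Gpx4 and Nfe2l2, and replicate 1 of Rb KO is redder than the other 2 Rb KO arrays in most rows.

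Some features of the whole series bear on these results. The erythroid marker list (11 genes) averaged between 12.17 and 12.98 in every array. It was not without change: 5 of its genes were higher and 1 lower in DKO against Rb KO, and 1 was higher (Epor) and 1 lower (Alas2) in E2f8 KO against WT and in DKO against WT. Neither targeted gene tracked its label. Rb1 averaged lower in all 3 knockout groups than in WT and lowest in E2f8 KO, at 11.68 to 11.74, against 12.71 to 13.02 in WT. E2f8 stood at 13.09 to 13.17 in DKO and 12.74 to 12.89 in E2f8 KO, against 11.70 to 12.28 in WT, and the labels do not say where its probe set lies relative to the deleted part. Genotype names below are those the arrays were labelled with, and each direction rests on these names. Across genes, the arrays of 1 group had pairwise correlations (Pearson's r) of 0.92 to 0.99. In replicate 3 of DKO and of E2f8 KO the X-inactivation transcript Xist read 3.99 and 5.22, against at least 11.30 elsewhere. Markers of other spleen cells were also measured. The B cell marker list (17 genes) averaged 6.80 ± 0.54 in DKO, 7.96 ± 0.18 in E2f8 KO, 11.15 ± 1.23 in Rb KO and 10.95 ± 0.65 in WT (SD, n = 3). In DKO the means of its genes Ebf1, Fcer2a and Cr2 were below the filter level, and no gene of the list was in the other groups. In a bulk sample, fewer cells of a type and less RNA per cell cannot be told apart.

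**Figure D2:**
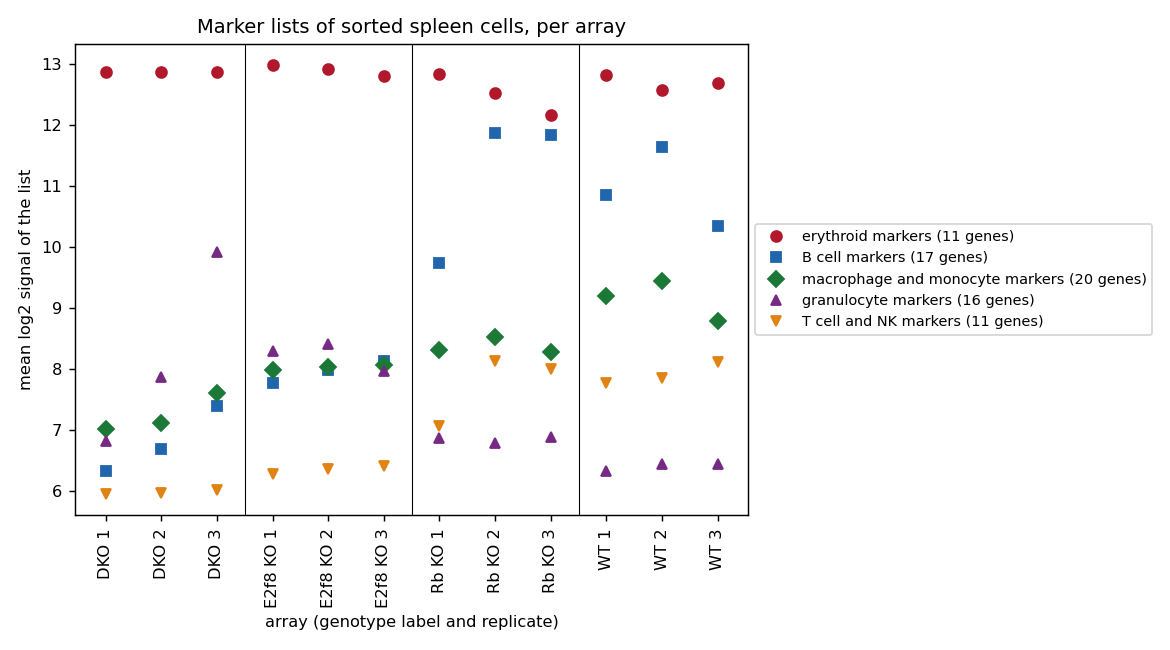
Mean log2 signal of 5 marker lists in each of the 12 arrays, with the number of genes in each list in the legend. The erythroid list lies between 12.17 and 12.98 throughout, the B cell list is at 6.33 to 8.14 in the DKO and E2f8 KO arrays and at 9.73 to 11.87 in the Rb KO and WT arrays, and the granulocyte list spans 6.81 to 9.92 over the 3 DKO arrays.

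Catalase (Cat), the peroxisomal enzyme that splits hydrogen peroxide, was lower in both groups with the E2f8 label, and lower in DKO than in E2f8 KO. Its log2 signals were 12.12, 12.05 and 11.65 in DKO arrays, 13.10, 13.05 and 12.93 in E2f8 KO arrays, 13.91, 13.73 and 13.83 in Rb KO arrays and 13.93, 14.09 and 14.04 in WT arrays. Every DKO array lay below every E2f8 KO array, and these lay below all Rb KO and WT arrays. Cat fell by 2.08 ± 0.11 (SE, n = 3 per group, limma adjusted p = 9.30e-07) in DKO against WT, a 4.23-fold difference, and by 1.88 ± 0.11 against Rb KO (adjusted p = 2.45e-06). It fell by 0.99 ± 0.11 in E2f8 KO against WT (adjusted p = 0.000258), while Rb KO differed from WT by -0.20 ± 0.11 (adjusted p = 1). Cat was also the only one of the 31 genes called in DKO against E2f8 KO, where it fell by 1.09 ± 0.11 (adjusted p = 0.00031). In that comparison 2.37% of all genes were called, and 0.647% of all genes were called as lower.

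Of 10 peroxidases, catalase and dismutases, 2 were higher and 1 lower in E2f8 KO against WT, and 4 were higher and 1 lower in DKO against Rb KO. These are 30% and 50% of the group, against 26.1% and 37.1% of all genes, and the first share is near its background. Among the 4 peroxiredoxins tested, which reduce peroxides through a reactive cysteine, only Prdx4 was called with all 12 arrays. This member works in the endoplasmic reticulum, and its log2 signals were 9.04, 8.85 and 8.88 in DKO arrays, 7.94, 7.87 and 7.98 in E2f8 KO arrays, 7.87, 6.85 and 6.42 in Rb KO arrays and 7.24, 6.96 and 6.99 in WT arrays. The 3 DKO arrays lay above all others, and the E2f8 KO arrays lay above the WT arrays. Prdx4 rose by 1.86 ± 0.28 in DKO against WT (adjusted p = 0.000277) and by 1.88 ± 0.28 against Rb KO (adjusted p = 0.000363). In E2f8 KO it rose by 0.86 ± 0.28 over WT (adjusted p = 0.0364) and that call was lost without any 1 of the 6 arrays compared (differences of 0.81 to 0.95, adjusted p up to 0.116). Prdx4 lies on the X chromosome. In the low-Xist replicate 3 it stood at 8.88 in DKO and 7.98 in E2f8 KO, close to the other arrays of those groups.

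The cytosolic Prdx2, an abundant protein of red cells, and the mitochondrial Prdx3 did not pass in any comparison of all 12 arrays. Prdx2 averaged 13.68 ± 0.06 in DKO, 13.84 ± 0.07 in E2f8 KO, 13.58 ± 0.28 in Rb KO and 13.76 ± 0.11 in WT (SD, n = 3), and its interval for DKO against WT ran from -0.33 to 0.17. Prdx3 averaged 10.48 ± 0.05 in DKO, 10.62 ± 0.15 in E2f8 KO, 10.86 ± 0.61 in Rb KO and 10.83 ± 0.20 in WT. A second Prdx2 probe set gave differences of -0.02 in DKO against WT, 0.42 in DKO against Rb KO and 0.26 in E2f8 KO against WT. Prdx1 had log2 signals of 10.34, 10.37 and 10.67 in DKO arrays, 9.64, 9.90 and 9.99 in E2f8 KO arrays, 10.44, 9.90 and 9.96 in Rb KO arrays and 10.14, 9.79 and 10.01 in WT arrays. The DKO arrays lay above the E2f8 KO arrays, by 0.61 ± 0.19 (adjusted p = 0.108, interval 0.21 to 1.02), and its second probe set gave 9.78 in DKO and 9.18 in E2f8 KO. Without replicate 1 of Rb KO, an array outside this comparison that adds to the shared spread, Prdx1 passed with a difference of 0.61 (adjusted p = 0.0385). In DKO against WT Prdx1 differed by 0.48 ± 0.19 (limma adjusted p = 0.0595), and by 0.50 with its second probe set.

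Of the 3 glutathione peroxidases, only Gpx4 passed. This enzyme, which reduces lipid peroxides in membranes and protects cells from ferroptosis, a death by lipid oxidation, had log2 signals of 12.13, 11.99 and 12.14 in DKO arrays, 11.83, 11.70 and 11.67 in E2f8 KO arrays, 11.37, 10.64 and 10.39 in Rb KO arrays and 10.80, 10.62 and 10.67 in WT arrays. All DKO arrays lay above all E2f8 KO arrays, and both groups lay above every Rb KO and WT array. Gpx4 rose by 1.38 ± 0.20 in DKO against WT (adjusted p = 0.000212), by 1.28 ± 0.20 in DKO against Rb KO (adjusted p = 0.000468) and by 1.03 ± 0.20 in E2f8 KO against WT (adjusted p = 0.00374). A second Gpx4 probe set gave differences of 1.33, 1.22 and 1.01 for the same comparisons. Gpx1, the abundant cytosolic form in red cells, averaged 14.16 ± 0.07 in DKO, 14.19 ± 0.06 in E2f8 KO, 14.18 ± 0.05 in Rb KO and 14.27 ± 0.08 in WT, with an interval of -0.25 to 0.02 for DKO against WT. The secreted Gpx3 stood near the filter level in every group, between 6.12 and 6.28 on average.

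The superoxide dismutases, which turn superoxide into hydrogen peroxide, showed smaller differences. Cytosolic Sod1 had log2 signals of 12.71, 12.80 and 13.22 in DKO arrays, 12.59, 12.70 and 12.65 in E2f8 KO arrays, 12.65, 11.91 and 11.96 in Rb KO arrays and 12.32, 12.03 and 12.21 in WT arrays. The DKO arrays lay above every Rb KO and WT array. Sod1 rose by 0.72 ± 0.18 in DKO against WT (adjusted p = 0.00787) and by 0.73 ± 0.18 against Rb KO (adjusted p = 0.00738), and differed by 0.46 ± 0.18 in E2f8 KO against WT (adjusted p = 0.0836). Without both low-Xist arrays the DKO differences were 0.56 against WT and 0.58 against Rb KO, and neither was called (adjusted p = 0.0545 and 0.0516). Mitochondrial Sod2 passed only in DKO against Rb KO, where it rose by 0.50 ± 0.17 (adjusted p = 0.0353). That call was lost without replicate 3 of E2f8 KO, replicate 2 or 3 of Rb KO, or any DKO array (adjusted p up to 0.167). The plot of signals per array sets out the genes on which the account turns.

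**Figure D3:**
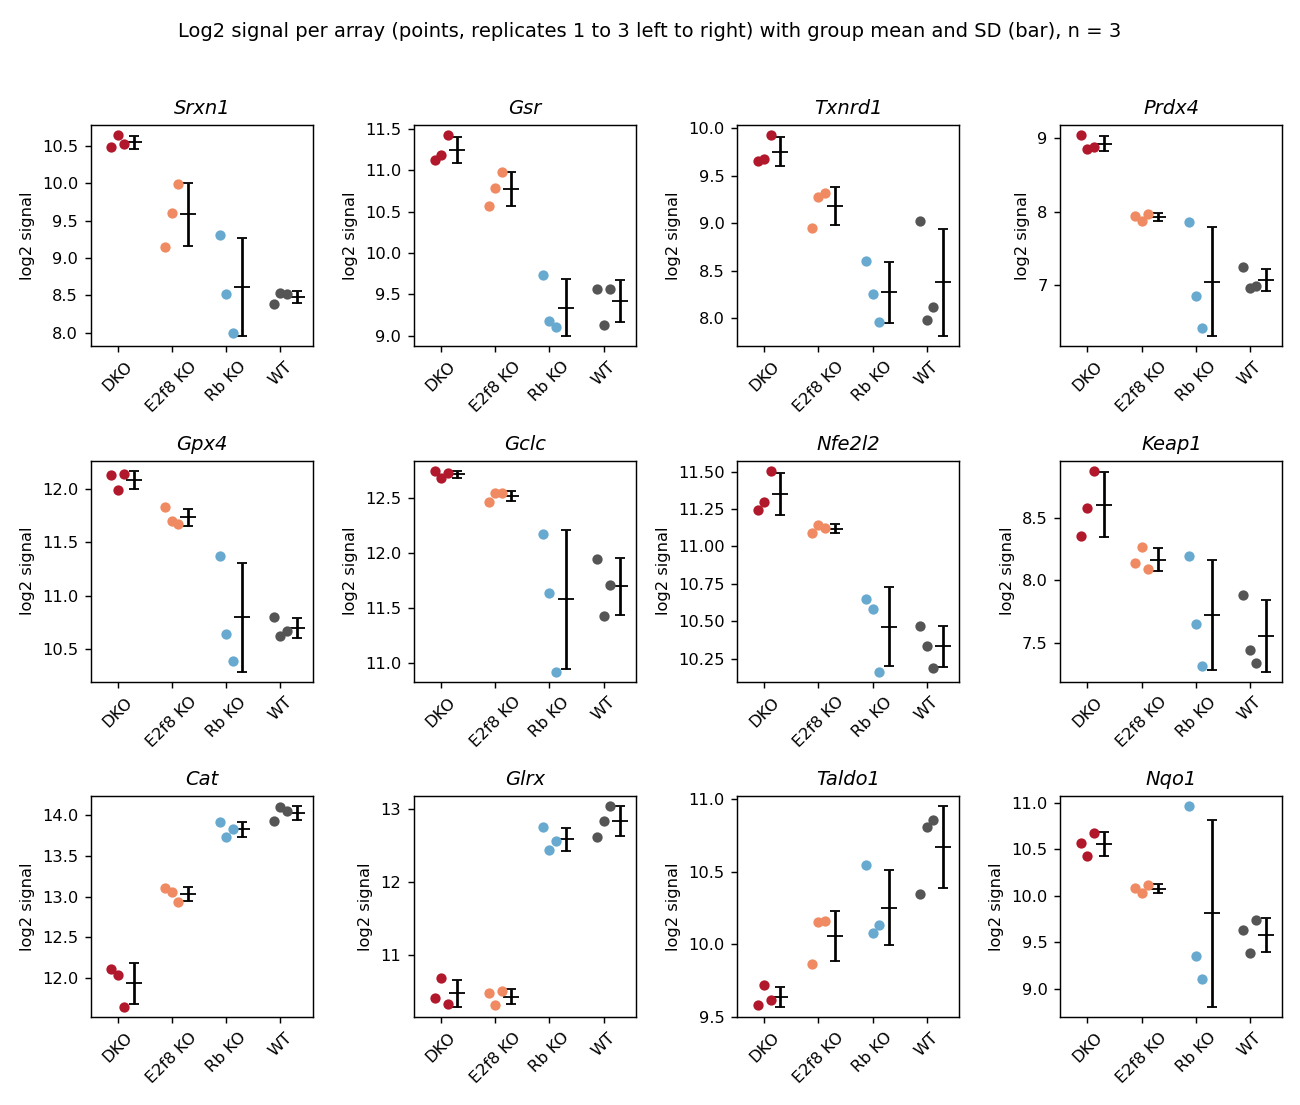
Log2 signal of 12 genes, 1 panel each with its own vertical scale, for DKO, E2f8 KO, Rb KO and WT from left to right. Points are single arrays and black bars the group mean with its SD (n = 3). Cat is lowest in DKO, next lowest in E2f8 KO and highest in Rb KO and WT, Glrx is about equally low in DKO and E2f8 KO, and Nqo1 in Rb KO has 1 array at 10.97 and 2 at 9.36 and 9.11.

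Of 10 genes of the glutathione and thioredoxin systems, 5 were higher and 1 lower in E2f8 KO against WT, and 6 were higher and 2 lower in DKO against Rb KO (26.1% and 37.1% of all genes called, 11.9% and 19.5% as higher). Glutaredoxin (Glrx), which removes glutathione from protein thiols, was the most reduced member in E2f8 KO against WT. Its log2 signals were 10.41, 10.69 and 10.33 in DKO arrays, 10.48, 10.31 and 10.51 in E2f8 KO arrays, 12.75, 12.44 and 12.55 in Rb KO arrays and 12.62, 12.83 and 13.04 in WT arrays. The 6 arrays with the E2f8 label lay at 10.31 to 10.69 and the other 6 at 12.44 to 13.04. Glrx fell by 2.40 ± 0.15 in E2f8 KO against WT (SE, n = 3 per group, adjusted p = 4.38e-06), a 5.26-fold difference, and fell by 2.10 ± 0.15 in DKO against Rb KO (adjusted p = 4.54e-06). Between DKO and E2f8 KO it differed by 0.05 ± 0.15, with an interval of -0.27 to 0.36. Cat and Glrx were called in all 25 alternative fits of the 3 comparisons that set an E2f8-labelled group against WT or Rb KO.

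Glutathione reductase (Gsr), which regenerates reduced glutathione from NADPH, had log2 signals of 11.12, 11.18 and 11.42 in DKO arrays, 10.56, 10.78 and 10.97 in E2f8 KO arrays, 9.74, 9.18 and 9.10 in Rb KO arrays and 9.56, 9.12 and 9.57 in WT arrays. The groups with and without the E2f8 label did not overlap, and the DKO arrays lay above the E2f8 KO arrays. Gsr rose by 1.90 ± 0.20 in DKO against Rb KO (adjusted p = 5.42e-05) and by 1.35 ± 0.20 in E2f8 KO against WT (adjusted p = 0.00115). Its difference between DKO and E2f8 KO was 0.47 ± 0.20 (adjusted p = 0.249).

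Of the genes for glutathione synthesis, Gclc, the catalytic subunit of the rate-limiting ligase, had log2 signals of 12.74, 12.68 and 12.72 in DKO arrays, 12.46, 12.54 and 12.55 in E2f8 KO arrays, 12.17, 11.64 and 10.92 in Rb KO arrays and 11.94, 11.43 and 11.71 in WT arrays. All 6 arrays with the E2f8 label lay above all 6 without it. Gclc rose by 1.14 ± 0.24 in DKO against Rb KO (adjusted p = 0.00252) and by 0.82 ± 0.24 in E2f8 KO against WT (adjusted p = 0.0222, and up to 0.0992 without replicate 2 of WT or any E2f8 KO array). The modifier subunit Gclm rose by 0.42 ± 0.10 in DKO against Rb KO (adjusted p = 0.00697) and had differences of 0.25 ± 0.10 in DKO against WT and 0.28 ± 0.10 in E2f8 KO against WT (adjusted p = 0.0826 and 0.0665). Glutathione synthetase (Gss), the second enzyme of the pathway, did not pass, at 7.62 ± 0.22 in DKO and 7.34 ± 0.29 in WT.

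In the thioredoxin system, the cytosolic members rose and the mitochondrial ones fell in DKO against WT. Thioredoxin reductase 1 (Txnrd1, cytosolic) had log2 signals of 9.65, 9.68 and 9.93 in DKO arrays, 8.95, 9.27 and 9.32 in E2f8 KO arrays, 8.60, 8.25 and 7.96 in Rb KO arrays and 9.03, 7.98 and 8.12 in WT arrays. Replicate 1 of WT lay above replicate 1 of E2f8 KO, so that these groups overlapped, while all DKO arrays lay above all others. Txnrd1 rose by 1.48 ± 0.26 in DKO against Rb KO (adjusted p = 0.00101) and by 0.81 ± 0.26 in E2f8 KO against WT (adjusted p = 0.0379, and up to 0.168 without replicate 2 or 3 of WT, replicate 2 of DKO or any E2f8 KO array). In DKO against WT it rose by 1.38 ± 0.26 (adjusted p = 0.0013). Its substrate thioredoxin 1 (Txn1) rose by 0.23 ± 0.07 in DKO against WT (adjusted p = 0.0233). It also rose by 0.26 ± 0.07 in E2f8 KO against WT and by 0.22 ± 0.07 in DKO against Rb KO (adjusted p = 0.0217 and 0.0325). These small differences lost their calls, with adjusted p up to 0.131, without single arrays: in DKO against WT replicate 3 of DKO or 2 or 3 of WT, in E2f8 KO against WT any E2f8 KO array or replicate 2 of WT, and in DKO against Rb KO any DKO array or replicate 2 or 3 of Rb KO. The mitochondrial Txn2 had log2 signals of 10.32, 10.54 and 10.51 in DKO arrays, 10.84, 10.85 and 10.74 in E2f8 KO arrays, 10.94, 10.81 and 10.70 in Rb KO arrays and 11.06, 11.28 and 11.09 in WT arrays. The DKO arrays were the lowest. Txn2 fell by 0.69 ± 0.13 in DKO against WT (adjusted p = 0.00136) and by 0.36 ± 0.13 in DKO against Rb KO (adjusted p = 0.0475, kept only without replicate 1 of WT or replicate 3 of Rb KO). The mitochondrial reductase Txnrd2 fell by 0.75 ± 0.21 in DKO against WT (adjusted p = 0.0131) and differed by -0.35 ± 0.21 in DKO against Rb KO (adjusted p = 0.224).

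Sulfiredoxin (Srxn1), which repairs overoxidised peroxiredoxins and is a well-known NRF2 target, had log2 signals of 10.48, 10.64 and 10.52 in DKO arrays, 9.15, 9.61 and 9.99 in E2f8 KO arrays, 9.31, 8.52 and 8.003 in Rb KO arrays and 8.38, 8.53 and 8.52 in WT arrays. The DKO arrays formed a tight group above all others, and the E2f8 KO arrays spread between 9.15 and 9.99. Srxn1 rose by 2.07 ± 0.29 in DKO against WT (adjusted p = 0.000168), a 4.2-fold difference, and by 1.94 ± 0.29 against Rb KO (adjusted p = 0.000372). In E2f8 KO it rose by 1.11 ± 0.29 over WT (adjusted p = 0.0144), a call lost without replicate 3 of E2f8 KO (0.90, adjusted p = 0.065). DKO and E2f8 KO differed by 0.96 ± 0.29 (adjusted p = 0.103), and by 0.96 (adjusted p = 0.0169) without replicate 1 of Rb KO.

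Nfe2l2, the gene of NRF2, was itself higher in the arrays with the E2f8 label. Its log2 signals were 11.24, 11.30 and 11.51 in DKO arrays, 11.09, 11.15 and 11.13 in E2f8 KO arrays, 10.65, 10.58 and 10.16 in Rb KO arrays and 10.47, 10.34 and 10.19 in WT arrays. The 6 arrays with that label lay at 11.09 to 11.51 and the other 6 at 10.16 to 10.65. Nfe2l2 rose by 0.88 ± 0.15 in DKO against Rb KO (adjusted p = 0.000936) and by 0.79 ± 0.15 in E2f8 KO against WT (adjusted p = 0.00403). Keap1, the gene of its inhibitor, had log2 signals of 8.36, 8.58 and 8.88 in DKO arrays, 8.14, 8.27 and 8.09 in E2f8 KO arrays, 8.19, 7.65 and 7.31 in Rb KO arrays and 7.88, 7.44 and 7.34 in WT arrays. All DKO arrays lay above the other 9. Keap1 rose by 1.05 ± 0.23 in DKO against WT and by 0.89 ± 0.23 against Rb KO (adjusted p = 0.00324 and 0.0092), and differed by 0.61 ± 0.23 in E2f8 KO against WT (adjusted p = 0.0689, and 0.0222 to 0.0467 without replicate 1 of WT or replicate 1 or 3 of Rb KO).

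Because Nfe2l2 and its target Srxn1 were called as higher, the 250 bases before the annotated start of each gene (RefSeq, GRCm38.p6) were searched on both strands for the core of the antioxidant response element, TGACNNNGC, and for TGANTCAGC, a site of NRF2-type factors with small MAF partners that overlaps the first where its N is C. Of the 31 genes, 28 had a promoter entry. The first motif was in 6 of them (21.4%, against 11.5% of 27025 genes), namely Gclm, Gstm5, Nfe2l2, Prdx1, Sod1 and Txnrd1, and the second in 2, Prdx1 and Srxn1 (7.14%, against 1.17%). The E2F sequences TTTCCCGC and TTTGGCGC were in 0 of the 28 (1.03% and 0.485% of all genes). A match is a description of these letters and not a bound site, and sites farther away are not in these windows. Matches and calls overlapped in part, and no test of this was made. Gclm, Nfe2l2, Sod1, Srxn1 and Txnrd1 had a match and were called as higher in some comparison with all 12 arrays. Cat, Glrx, Gstm1, Idh1, Taldo1, Txn2 and Txnrd2, called as lower in some comparison with all 12 arrays, had none. Gpx4, Prdx4, Txn1, Keap1, Sod2 and Nqo1 were higher in some comparison, and neither motif was in their windows. Gclc and Gsr, also higher, had no promoter entry. Gstm5 and Prdx1, with matches, were called in no comparison with all 12 arrays. The windows of 3 genes that stood higher, 1 of them from a downstream start of Txnrd1, and of Cat, the gene that separated DKO from E2f8 KO, are shown 5′ to 3′ on the strand of the gene, with the matches in capitals.
Srxn1, chr2:152105274-152105523, plus strand: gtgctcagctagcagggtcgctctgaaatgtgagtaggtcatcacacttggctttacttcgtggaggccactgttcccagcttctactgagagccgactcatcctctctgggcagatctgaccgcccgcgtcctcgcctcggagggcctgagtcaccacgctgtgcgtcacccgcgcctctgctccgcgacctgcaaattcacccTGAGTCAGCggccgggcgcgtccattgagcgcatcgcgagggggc
Nfe2l2, chr2:75704664-75704913, minus strand: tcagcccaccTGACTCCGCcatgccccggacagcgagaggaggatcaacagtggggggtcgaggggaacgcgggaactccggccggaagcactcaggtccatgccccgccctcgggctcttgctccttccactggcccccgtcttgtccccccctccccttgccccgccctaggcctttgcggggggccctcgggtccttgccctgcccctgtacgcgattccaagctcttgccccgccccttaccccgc
Txnrd1, chr10:82858956-82859205, plus strand: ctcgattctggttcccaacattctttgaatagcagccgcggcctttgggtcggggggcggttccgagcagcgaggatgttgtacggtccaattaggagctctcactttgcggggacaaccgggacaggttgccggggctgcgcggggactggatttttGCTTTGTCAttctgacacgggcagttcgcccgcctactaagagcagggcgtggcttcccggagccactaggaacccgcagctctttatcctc
Cat, chr2:103485154-103485403, minus strand, with no match: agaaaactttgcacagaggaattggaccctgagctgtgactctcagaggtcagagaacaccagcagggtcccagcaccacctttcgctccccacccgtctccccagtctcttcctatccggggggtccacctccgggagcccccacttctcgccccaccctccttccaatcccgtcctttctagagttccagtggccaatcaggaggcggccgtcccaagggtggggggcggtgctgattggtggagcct

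Nqo1, a quinone reductase and another classical NRF2 target, differed less clearly. Its log2 signals were 10.57, 10.42 and 10.68 in DKO arrays, 10.08, 10.03 and 10.12 in E2f8 KO arrays, 10.97, 9.36 and 9.11 in Rb KO arrays and 9.63, 9.38 and 9.74 in WT arrays. The Rb KO arrays spanned the whole range of the other groups, with replicate 1 the highest of all 12 arrays. Nqo1 rose by 0.98 ± 0.36 in DKO against WT (adjusted p = 0.0454, and up to 0.134 without any 1 array of DKO, E2f8 KO or WT), and its difference in DKO against Rb KO was 0.75 ± 0.36 (adjusted p = 0.122). Without replicate 1 of Rb KO, DKO stood above Rb KO by 1.33 (adjusted p = 2.25e-05).

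The glutathione transferases, which conjugate glutathione to electrophiles, went the other way or did not pass. Gstm1 had log2 signals of 7.33, 7.59 and 7.54 in DKO arrays, 7.13, 6.80 and 7.03 in E2f8 KO arrays, 7.21, 8.31 and 8.06 in Rb KO arrays and 7.97, 8.59 and 7.82 in WT arrays. The E2f8 KO arrays were the lowest of all. Gstm1 fell by 1.14 ± 0.27 in E2f8 KO against WT (adjusted p = 0.00933), a call lost without replicate 2 of WT (-0.91, adjusted p = 0.0506), while DKO differed from Rb KO by -0.37 ± 0.27 (adjusted p = 0.317). Gstm5 had differences of -0.61 ± 0.26 and -0.64 ± 0.26 in the same comparisons (adjusted p = 0.097 and 0.0712). Gsta4 and the microsomal Mgst3 passed in none of the comparisons. The widest of their differences were -0.36 ± 0.27 for Mgst3 in DKO against E2f8 KO and -0.22 ± 0.20 for Gsta4 in Rb KO against WT (adjusted p = 0.5 and 1).

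Of 4 genes of the NADPH supply, 0 were higher in any comparison with all 12 arrays, and 1 was lower in E2f8 KO against WT and in DKO against Rb KO, and 2 in DKO against WT. All genes had 14.2%, 17.6% and 17.6% lower calls in these comparisons, and counts of 1 or 2 in 4 cannot be set apart from that. Taldo1, which encodes transaldolase of the pentose phosphate pathway, had log2 signals of 9.58, 9.72 and 9.62 in DKO arrays, 9.86, 10.16 and 10.16 in E2f8 KO arrays, 10.55, 10.08 and 10.13 in Rb KO arrays and 10.35, 10.81 and 10.86 in WT arrays. The DKO arrays were the lowest, and the WT arrays lay above all DKO and E2f8 KO arrays. Taldo1 fell by 1.03 ± 0.18 in DKO against WT (adjusted p = 0.000863), by 0.61 ± 0.18 against Rb KO (adjusted p = 0.0185) and by 0.61 ± 0.18 in E2f8 KO against WT (adjusted p = 0.0274). The call in E2f8 KO was lost without replicate 2 or 3 of WT or any E2f8 KO array (adjusted p up to 0.118), and that against Rb KO without replicate 1 or 3 of DKO (up to 0.0536). Transketolase (Tkt), which works beside it, averaged 9.07 ± 0.20 in DKO and 8.87 ± 0.09 in WT, with an interval of -0.24 to 0.65 for the difference. Idh1, a cytosolic NADPH source, fell by 1.12 ± 0.35 in DKO against WT (adjusted p = 0.0237). Its DKO signals of 5.57, 6.10 and 6.66 reached below the filter level, against 7.74, 7.54 and 6.41 in WT, and the groups overlapped. The call was lost without replicate 1 or 2 of either group (adjusted p up to 0.101), and E2f8 KO against WT was called without replicate 3 of WT (adjusted p = 0.015).

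Pgd, of the phosphogluconate dehydrogenase that makes NADPH, had log2 signals of 7.34, 8.41 and 9.51 in DKO arrays, 7.61, 8.58 and 8.25 in E2f8 KO arrays, 8.18, 8.96 and 8.67 in Rb KO arrays and 8.65, 8.94 and 8.13 in WT arrays. No comparison passed, and the 3 DKO arrays differed widely. The granulocyte marker list (16 genes) stood at 6.81, 7.88 and 9.92 in those arrays, in the same order as Pgd, and at 7.96 to 8.41 in E2f8 KO, 6.78 to 6.89 in Rb KO and 6.32 to 6.45 in WT. The part of granulocyte RNA in the Pgd values was not tested. In a fit with the list mean as a covariate, added after seeing the data, Pgd was called as lower in DKO and in E2f8 KO against WT, with differences of -1.33 and -1.62 (adjusted p = 0.0414 and 0.0317). With the B cell and macrophage lists as covariates it was called as higher in the same comparisons, with 4.20 and 2.27 (adjusted p = 0.0167 and 0.0467), so that its direction depends on the fit.

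In E2f8 KO against WT, the members' median difference was 0.10, against 0.06 over all genes. The 12 members called (26.1% of all genes) became 6 without replicate 2 of WT or replicate 3 of E2f8 KO (11.8% and 16.9% of all genes). The count was 7 without replicate 1 or 2 of E2f8 KO (14.5% and 15.7%), and 18 without replicate 1 of Rb KO (33.8%). The share of all genes called thus moved the same way. With each array centred on its median (23.9% of all genes called) the split was 5 higher and 4 lower, against 8 and 4 without the centring. In DKO against WT, 11 were higher and 6 lower (38.2% of all genes called, 20.6% as higher), with a median of 0.20 against 0.00 over all genes. In DKO against Rb KO the members had a median of 0.16 against -0.01. The shares of members called with all 12 arrays, 38.7%, 54.8% and 51.6%, stand above the 26.1%, 38.2% and 37.1% of all genes. However, the genes were listed with earlier results of these data known, and no test of the list was made.

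E2f8 KO against WT and DKO against Rb KO share no array, and both set the E2f8 label against its absence. Of the 8 members higher in the first, 8 (100%) were also higher in the second, which is 66.7% of its 12: Gclc, Gpx4, Gsr, Nfe2l2, Prdx4, Srxn1, Txn1 and Txnrd1. Gclm, Keap1, Sod1 and Sod2 were called in the second alone. Of 4 lower members in each, 3 (75.0% of either) were shared, namely Cat, Glrx and Taldo1. Over all genes, 88.6% of those higher in the first comparison were also higher in the second, and 83.6% of those lower were also lower, so that most calls of the series are shared in this way. The test of the difference between the 2 comparisons, the interaction of both labels, called 0 of 31 members (0.077% of all genes, 0.0539% as higher and 0.0231% as lower). In limma's fit 2 members and 740 of 12980 genes were at an unadjusted p under 0.05. Cat came closest, with an interaction of -0.89 ± 0.16 (adjusted p = 0.101). It passed without replicate 1 of DKO (adjusted p = 0.0428), with quantile normalization (-0.97, adjusted p = 0.0372) and without replicate 1 of Rb KO (-0.85, adjusted p = 0.0427). Prdx4 passed as well without that array (1.43, adjusted p = 0.0186), against 1.02 ± 0.39 (adjusted p = 0.832) with all 12.

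**Figure D4:**
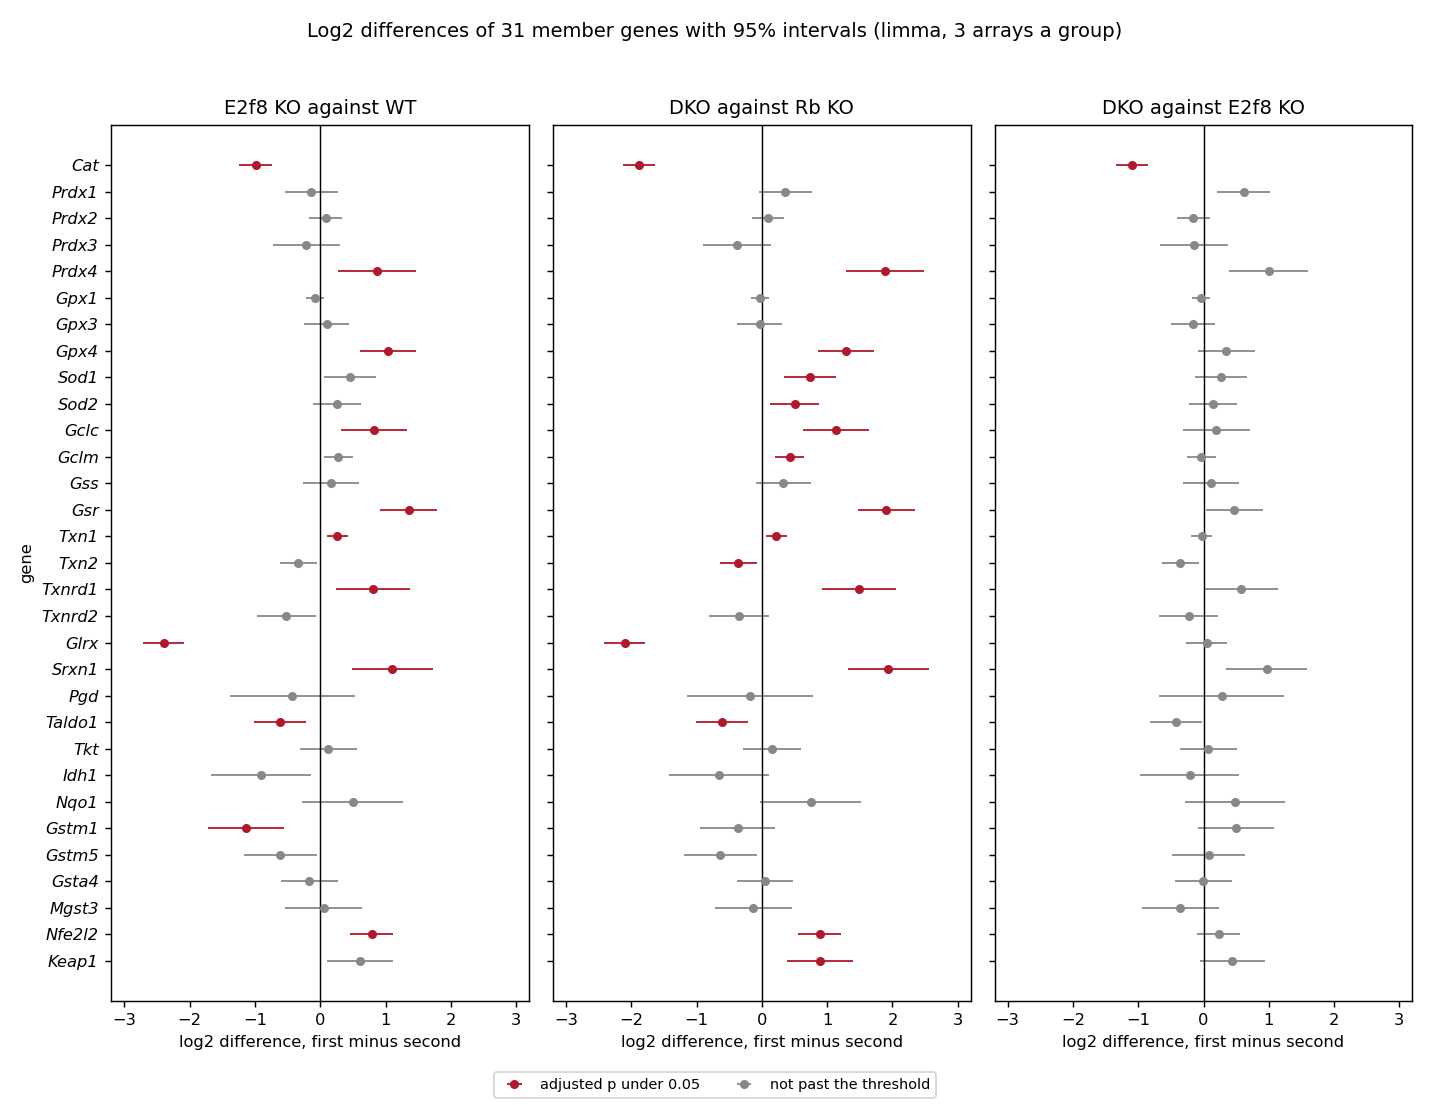
Log2 difference of the 31 genes (rows) in E2f8 KO against WT, DKO against Rb KO and DKO against E2f8 KO, with 95% intervals from the fit over all genes, positive where the first-named group is higher. Red marks genes past an adjusted p of 0.05: 12, 16 and 1 in the 3 panels, with Cat the single one in the third.

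Set against E2f8 KO, DKO differed in 1 member, Cat, while 2.37% of all genes were called. In limma's fit 8 of 31 members and 2349 of 12980 genes were at an unadjusted p under 0.05. Prdx4 had a difference of 0.996 ± 0.28 (adjusted p = 0.0828), with the 3 DKO arrays above the 3 E2f8 KO arrays. Without replicate 1 of Rb KO the count of calls was 4 (5.49% of all genes), with Prdx4 (0.996), Srxn1 and Prdx1 higher beside Cat. It was 2 without replicate 3 of Rb KO (2.67% of all genes).

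Rb KO against WT called 0 of the 31 members, while 0.0077% of all genes were called. In limma's fit 2 members and 597 of 12980 genes were at an unadjusted p under 0.05. Differences ran from -0.46 for Idh1 to 0.23 for Nqo1, and the median half-width of the 95% interval was 0.43. The 2 members at that unadjusted p were Txn2 at -0.33 ± 0.13 and Taldo1 at -0.42 ± 0.18. The Rb KO arrays varied most: their SD was the largest of the 4 groups for 22 of 31 members, and the median SD was 0.14 in DKO, 0.12 in E2f8 KO, 0.38 in Rb KO and 0.18 in WT. Replicate 1 was the highest of the 3 Rb KO arrays for 28 of 31 members (90.3%, against 44.3% of all genes), by a median of 0.51 over the mean of the other 2 and by 1.74 for Nqo1. The B cell list stood at 9.73 in that array and at 11.87 and 11.84 in the other 2. Its part in these values was not tested. Without replicate 1, 28 of 31 members lay below 0 in Rb KO against WT, from -0.63 for Txnrd2 to 0.24 for Pgd, and 0 passed (smallest adjusted p = 0.0639, for Prdx2). In that fit 1.08% of all genes were called, and the median over all genes was 0.02. With all 12 arrays 20 members lay below 0. Leaving out the highest array lowers a group mean by itself, so the larger count is no separate result. With that array left out, 33.8% of all genes were called in E2f8 KO against WT. Keap1, Sod1, Gclm and Nqo1 were then also called as higher there (adjusted p = 0.0222, 0.0108, 0.0109 and 0.0192), and Txnrd2 and Gstm5 as lower.

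Beyond the 31 genes, a list of 41 further tested genes of antioxidant defence and NADPH supply had 3 higher and 10 lower members in E2f8 KO against WT, 7 and 13 in DKO against WT, and 6 and 13 in DKO against Rb KO, with medians of -0.21, -0.19 and -0.16. The shares called were 31.7%, 48.8% and 46.3%, against 26.1%, 38.2% and 37.1% of all genes. Hmox1, of heme oxygenase, an NRF2 target that macrophages also express strongly, averaged 9.58 ± 0.10 in DKO, 10.31 ± 0.16 in E2f8 KO, 10.71 ± 0.76 in Rb KO and 11.67 ± 0.37 in WT. It fell by 2.08 ± 0.30 in DKO against WT (adjusted p = 0.000221) and by 1.36 ± 0.30 in E2f8 KO against WT (adjusted p = 0.00726), opposite to Srxn1 and Gsr. The macrophage list (20 genes) averaged 7.25 ± 0.32 in DKO, 8.03 ± 0.04 in E2f8 KO, 8.37 ± 0.13 in Rb KO and 9.15 ± 0.33 in WT. The selenoprotein genes Selenow and Selenop also fell in DKO against WT, by 1.43 ± 0.18 and 1.70 ± 0.20 (adjusted p = 9.09e-05 and 6.84e-05).

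Genes on the same list that rose included Chac1, which degrades glutathione and is induced by the integrated stress response, and Me1, of the NADPH-making malic enzyme. Chac1 rose by 2.66 ± 0.33 in DKO against Rb KO (adjusted p = 0.000139) and by 1.49 ± 0.33 in E2f8 KO against WT (adjusted p = 0.00736). Me1 averaged 7.98 ± 0.29 in DKO, 6.74 ± 0.30 in E2f8 KO, 6.39 ± 0.51 in Rb KO and 6.09 ± 0.17 in WT, and rose by 1.24 ± 0.25 in DKO against E2f8 KO (adjusted p = 0.0217), the single call of the list there. Sesn3, of the sestrin family of stress proteins, fell by 2.73 ± 0.41 in DKO against WT (adjusted p = 0.000288). It averaged 6.075 in DKO and 6.45 in E2f8 KO, against 8.94 in Rb KO and 8.80 in WT. The B cell list was low in the same groups, and its part in the Sesn3 values was not tested. Sesn2, of the same family, went the other way. It averaged 9.96 in DKO and 9.29 in E2f8 KO, against 8.21 in Rb KO and 8.27 in WT.

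Of 13 other regulators of the response, 2 were higher and 4 lower in E2f8 KO against WT and 3 higher and 4 lower in DKO against Rb KO (26.1% and 37.1% of all genes called). Bach1, a repressor at antioxidant response elements that heme inactivates, rose by 0.62 ± 0.17 in E2f8 KO against WT and by 0.63 ± 0.17 in DKO against Rb KO (adjusted p = 0.019 and 0.0111). Mafg, a small MAF partner of NRF2 and BACH1, rose by 0.76 ± 0.18 in DKO against Rb KO (adjusted p = 0.00569). Foxo1 fell by 2.63 ± 0.50 in E2f8 KO against WT (adjusted p = 0.00351). It is also a gene of B cells, as is Bach2, which fell by 2.002 ± 0.57 (adjusted p = 0.0221). The part of B cell RNA in the values of these genes was not tested.

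Marker lists of other cells moved with the same comparisons. All 17 B cell markers were lower in E2f8 KO against WT and in DKO against Rb KO, 10 of 11 T cell and NK markers in the first and 11 in the second, 16 and 15 of 20 macrophage markers, while 8 and 3 of 16 granulocyte markers were higher. When the mean of the B cell markers in an array entered the fit as a covariate, 0 members were higher in E2f8 KO against WT, in DKO against WT or in DKO against Rb KO, and 5, 8 and 6 were lower. Of all genes, 2.20%, 8.15% and 4.63% were then called. The slope of that fit comes from differences between arrays of 1 group, which are largest in Rb KO, and is carried over larger distances between the groups. Differences in DKO against Rb KO were then 1.02 for Gsr, 0.69 for Srxn1, 0.73 for Nfe2l2 and 0.0733 for Gpx4. Cat and Glrx were -2.31 and -2.63 (adjusted p = 0.00158 and 0.00274). With the macrophage list as a second covariate, Nfe2l2 passed in E2f8 KO and in DKO against WT (1.08 and 1.69, adjusted p = 0.0433 and 0.0303). Pgd was also higher in both and Idh1 in the second, and Cat, Glrx and Gstm5 were lower in both. Of all genes, 3.21% and 6.26% were called in these comparisons. In DKO against Rb KO that fit called 2 members as higher, Pgd and Gstm1, and 8 as lower (7.58% of all genes called). With the granulocyte list alone, 25.9% of all genes were called in DKO against Rb KO and 11.4% in E2f8 KO against WT. In the first, 8 members remained higher: Prdx4, Gpx4, Gclc, Gclm, Gsr, Txnrd1, Srxn1 and Nfe2l2. In E2f8 KO against WT, 2 of the 8 members higher there without the covariate were still called as higher, Gpx4 and Gsr.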

How the data were processed

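Expression was measured on 12 single-channel arrays, 3 per genotype label. The authors deposited a value for each probe set in each array, on a log2 scale inferred from their range of 1.07 to 14.84. Per the submitters' processing notes, MAS5 was the software, and its version, the background correction and any scaling between arrays were not stated. The medians of the arrays were 6.22 to 6.35. Precision is limited by the 12 arrays, and no batch is labelled.

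The platform annotation gave 1 symbol to 21789 of 35557 probe sets, several to 1621 and none to 12147. Symbols were updated by gene number (21698 matched). Probe sets in the lowest 40% by mean were removed, and each gene kept its brightest probe set on average (12980 genes). The test was limma 3.58.1 (R 4.3.3), fitted to all 12 arrays with a mean per label (8 residual degrees of freedom) and moderated variances that follow the mean signal. P-values are two-sided and adjusted by Benjamini and Hochberg over all genes, separately for 6 comparisons, and those under 0.05 are calls. The fit was also run on simulated data, with independent noise of the same SD in every group. The real groups differed in spread, so that run cannot check how unequal spread affects the calls. No pseudocount was used, since the values are already logs. Adjusted p-values rest on the spread between arrays labelled biological replicates, pooled over the 4 groups, so that arrays outside a comparison also affect them.

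The genes and lists were chosen with earlier results of these data known. Any listed member may be named. Other genes are the targeted ones, Xist, and up to 4 per list and comparison by smallest p. Same-numbered replicates did not pair (7 of 18 pairs with correlated deviations above 0.1, range -0.38 to 0.57). Alternatives were the filter, scaling, probe set and variance choices, array weights, the arrays left out, and the mean of the B cell, the B cell and macrophage or, added after seeing the data, the granulocyte markers as covariates.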

Additional observations from a re-analysis of the deposited data

How the results depend on the processing

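The number of members called was compared over 25 other fits and 2 stricter limits. It moved by over 1.5 times in the following, where percentages are the shares of all genes called in the same fit. In E2f8 KO against WT, where 12 were called (26.1%), array weights gave 20 (51.2%) and the fit of only the groups compared 19 (33.2%). Both low-Xist arrays left out gave 6 (16.1%), the threshold of 0.01 gave 6 (10.9%) and an added 2-fold limit 5 (11.4%). The covariates B cell list, B cell and macrophage lists and granulocyte list gave 5 each (2.2%, 3.21% and 11.4%). In DKO against WT (17, 38.2%), the B cell list gave 8 (8.15%) and both lists 6 (6.26%). In DKO against Rb KO (16, 37.1%), the counts were 6 (4.63%) and 10 (7.58%) with these lists and 10 (25.9%) with the granulocyte list. They were 10 (27.2%) without the low-Xist arrays and 8 (16.7%) with the 2-fold limit. In DKO against E2f8 KO (1, 2.37%), array weights gave 11 (20.7%) and only the groups compared 7 (9.72%). The B cell list gave 4 (12.6%) and both lists 7 (12%), so the share of all genes called rose in each of these fits. The interaction (0, 0.077%) had 1 with quantile normalization (0.0924%), array weights (0.455%) or the granulocyte list (0.0924%). It had 2 with the B cell list (0.932%) and 3 with both lists (1.22%). Leaving out single arrays gave 6 to 18, 14 to 21, 12 to 19, 1 to 4 and 0 to 2 for these 5 comparisons. Of all genes, 11.8% to 33.8%, 28.1% to 43.3%, 26.4% to 44.6%, 0.609% to 5.49% and 0.0154% to 0.378% were then called. In Rb KO against WT the members had 0 to 0, and all genes 0.0077% to 1.08%. The removal of the lowest 60% left 29 members and no scaling moved the median of all genes by over 0.07. With the replicate number as a block (replicate block) the counts were 12, 17, 15, 1, 0 and, in Rb KO against WT, 0. Of all genes, 26.9%, 38.0%, 36.6%, 1.91%, 0.1% and 0.0077% were called, in that order. In that fit 1 call was lost, although the numbers do not pair the samples.

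Signs of differences that were called, with or without the alternative, turned only under the B cell and macrophage covariates, and the cause was not tested. With the B cell list, E2f8 KO against WT gave -0.36 for Prdx4, -0.15 for Gclc, 0.17 for Gstm1 and -1.34 for Mgst3. DKO against WT gave -0.0579 for Sod1, -0.33 for Gclc, -0.0461 for Txn1, -1.42 for Nqo1 and 0.32 for Idh1. DKO against Rb KO gave -0.75 for Prdx2, -0.0803 for Sod1, -0.45 for Sod2, -0.27 for Gclc, -0.20 for Gclm and -0.074 for Txn1. With both lists, E2f8 KO against WT gave 2.27 for Pgd and 0.11 for Gstm1. DKO against WT gave 4.20 for Pgd and 2.49 for Idh1. DKO against Rb KO gave -0.70 for Prdx2, -0.36 for Sod2, -0.0244 for Gclc, -0.18 for Gclm, -1.38 for Nqo1, 2.88 for Pgd and 1.51 for Gstm1. DKO against E2f8 KO gave 1.30 for Idh1.

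With 3 arrays a group, the median standard error of a difference was 0.18 over all genes. Members with signals near the filter level, such as Gpx3 and Idh1, are limited by signal over background.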
